A study of Mus musculus with 9 samples.

Results

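Oxidative phosphorylation makes most of the ATP of a respiring cell. Complex I takes electrons from NADH and complex II from succinate, complex III passes them to cytochrome c, complex IV hands them to oxygen, and complex V, the ATP synthase, uses the proton gradient that complexes I, III and IV build. Nearly all of their subunits are encoded in the nucleus and imported, whereas a small set of core subunits is read from the mitochondrial genome, and complex II is wholly nuclear. Mature adipocytes and bone-forming cells both depend on respiration, and the nuclear subunit genes are known as targets of the transcription factors NRF1, GABP and YY1 and of the coactivator encoded by Ppargc1a. The genes described here were chosen by name, as rows of the count table whose symbols start as those of complex I to V subunits do (Nduf, Sdh, Uqcr, Cyc1, Cox4 to Cox8 and Atp5). There were 88 such rows, of which 1 was left out as a pseudogene, so that 87 of 24186 genes remained. They comprise 35 genes of complex I, 4 of complex II, 9 of complex III, 16 of complex IV with Ndufa4 counted there, and 16 of complex V. The other 7 (Ndufa4l2, Sdhaf1, Sdhaf2, Cox7a2l, Cox4nb, Atp5s and Atp5sl) carry matching names but are not subunits, and are kept apart.

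The 9 libraries were made from poly(A) RNA of stromal progenitors flushed from the femora and tibiae of adult C57Bl/6 mice. Adipogenic progenitors that received 10 ng/ml interferon-γ (IFNγ) for 3 days gave 3 libraries, progenitors with osteogenic potential gave 3, and adipogenic progenitors with no IFNγ, called untreated here, gave 3. All cells carried the irtTA-GBD*-TAg transgene, which drives large T antigen when dexamethasone and doxycycline are present, so every group is a conditionally immortalised culture rather than fresh marrow. Both drugs were withdrawn 3 days ahead of RNA isolation. The cells had been cloned, by limiting dilution or single-cell deposition. The series design names 3 groups of 3 biological replicates. The sources used here do not say if the libraries of a group are different clones, cultures or animals. The p values cover the spread among these libraries only. Each library has the number 4, 5 or 6 in its label.

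Totals ran from 27440089 to 39251602 counts per library, so that a count of 0 allowed at most 0.0748 to 0.113 CPM (counts scaled to a common library size), taken as 3 counts and covering counting error only. The labels were checked against marker genes. Of 6 osteogenic markers, Sp7, a transcription factor of bone-forming cells, had 50.6 to 129.6 CPM in osteogenic libraries and at most 0.313 CPM in any adipogenic one. Runx2 and Alpl also lay wholly higher, at 132 to 150 and 260 to 395 CPM against at most 80.1 and 17.9 CPM. Ibsp had 1.61 to 138 CPM against at most 0.443 CPM. Bglap (0.827 to 3.57 CPM) and Spp1 (190 to 1450 CPM) overlapped untreated libraries (0.1995 to 0.939 and 212 to 1354 CPM). Adipoq and Plin1, markers of mature adipocytes, stayed at or below 0.2 CPM in all 9 libraries. The other 4 of 6 adipogenic markers (Pparg, Cebpa, Fabp4 and Lpl) were expressed, and the 6 summed to 97.3, 87.0 and 333 CPM in IFNγ-treated, 77.9, 70.6 and 37.1 CPM in osteogenic and 189, 74.9 and 646 CPM in untreated libraries 4, 5 and 6. Fabp4, a lipid carrier, had 22.2, 24.3 and 171 CPM in IFNγ-treated, 33.9, 21.0 and 9.09 CPM in osteogenic and 21.5, 24.1 and 234 CPM in untreated libraries. Lpl, lipoprotein lipase, had 49.96, 11.5 and 111.5 CPM in IFNγ-treated, 3.57, 3.53 and 2.14 CPM in osteogenic and 127, 12.3 and 291 CPM in untreated libraries. Both were highest in adipogenic libraries numbered 6, which also had the highest subunit sums of their groups, and the part of this in the results was not tested. Ptprc, which marks blood cells, and Pecam1, which marks vessels, were at most 0.0998 and 0.171 CPM. Of 5 vessel markers, Kdr was the only one tested, at 21.5 to 53.9 CPM in IFNγ-treated, 1.35 to 2.39 CPM in osteogenic and 8.65 to 17.4 CPM in untreated libraries, while Cdh5 was at most 0.0568 CPM and Emcn at 0 in all. The 6 blood markers summed to 5.68 to 21.6 CPM over the 9 libraries. Summed CPM of 5 cycling genes (Mki67, Top2a, Ccna2, Ccnb1 and Cdk1) ran from 238 to 648 in IFNγ-treated, 194 to 341 in osteogenic and 105 to 254 in untreated libraries, and their part in the results below, like that of Kdr, was not tested.

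The 87 genes took 0.798 to 0.922% of counts in IFNγ-treated, 0.753 to 0.792% in osteogenic and 0.811 to 1.07% in untreated adipogenic libraries. Of them, 83 passed the filter on low counts. The 4 that did not were Cox4i2 and Cox7b2 of complex IV and Atp5g2 and Atp5l2 of complex V. Per kilobase of exon (RPKM), subunit levels spanned several orders of magnitude. Averaged over the 9 libraries, Cox4i1, a complex IV subunit, had 708 RPKM and led all subunits, followed by Cox8a with 346 RPKM, also of complex IV, by Ndufa4 with 290 RPKM, and by Atp5b, the catalytic β subunit of ATP synthase, with 266 RPKM. The medians over the genes of a complex were 46.9 RPKM for complex I, 47.5 for II, 77.9 for III, 77.0 for IV and 44.9 for V.

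Paralogues differed widely in level. In complex IV, Cox4i1 had 670 ± 101 RPKM in IFNγ-treated, 614 ± 8.33 in osteogenic and 840.5 ± 209 RPKM in untreated libraries (SD, n = 3 each), while Cox4i2, its lung form, had 8 counts in all 9 libraries together. The muscle form Cox7a1 averaged 0.810 RPKM against 130.5 for the general form Cox7a2, and the testis forms Cox6b2 and Cox7b2 averaged 1.03 and 0.0283 RPKM. Among the genes for the membrane ring of ATP synthase, Atp5g3 averaged 99.5 RPKM, Atp5g1 2.02 and Atp5g2 0.361. Low values of a few subunit genes are less certain. Of the 75-base stretches (the read length) of annotated Atp5l transcripts from GENCODE, 63.4% also occur in transcripts of other genes, 9 of them pseudogenes, as do 35.8% of those of Atp5g2, 35.2% of Ndufb4 and 20.8% of Cox7c. Their mean levels were 0.670, 0.361, 1.92 and 5.13 RPKM. They were picked as both shared and low. Similar shares occurred at higher levels, as in Uqcrb (29.1%, 48.1 RPKM) and Ndufb9 (20.3%, 159 RPKM). For Atp5g1 the share was 7.21%, with 16 other genes. How the authors' counting treated reads that match several genes is not given, and 53 of the 79 subunit genes with annotated transcripts share no such stretch. Exonic length here is the union of all exons, which understates the RPKM of genes with long alternative exons.

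Cox6a2, the heart and muscle form of a complex IV subunit, stood apart in the libraries numbered 4 of both adipogenic groups. It had 19.9 CPM in IFNγ-treated library 4 and 9.43 CPM in untreated library 4. The other IFNγ-treated libraries had 0.310 and 0.851 CPM, the osteogenic ones 1.21, 0.639 and 1.27 CPM, and the other untreated ones 0.228 and 0.249 CPM. Both adipogenic libraries numbered 4 were therefore far above the other 7, and treated and untreated groups overlapped. The counts behind this were 674 and 335 in the 2 libraries numbered 4 and at most 45 elsewhere. The general form, Cox6a1, was lowest in the same libraries, with 116, 184 and 169 CPM in IFNγ-treated, 206, 180.5 and 199 CPM in osteogenic and 151, 219 and 214 CPM in untreated libraries 4, 5 and 6.

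**Figure D1:**
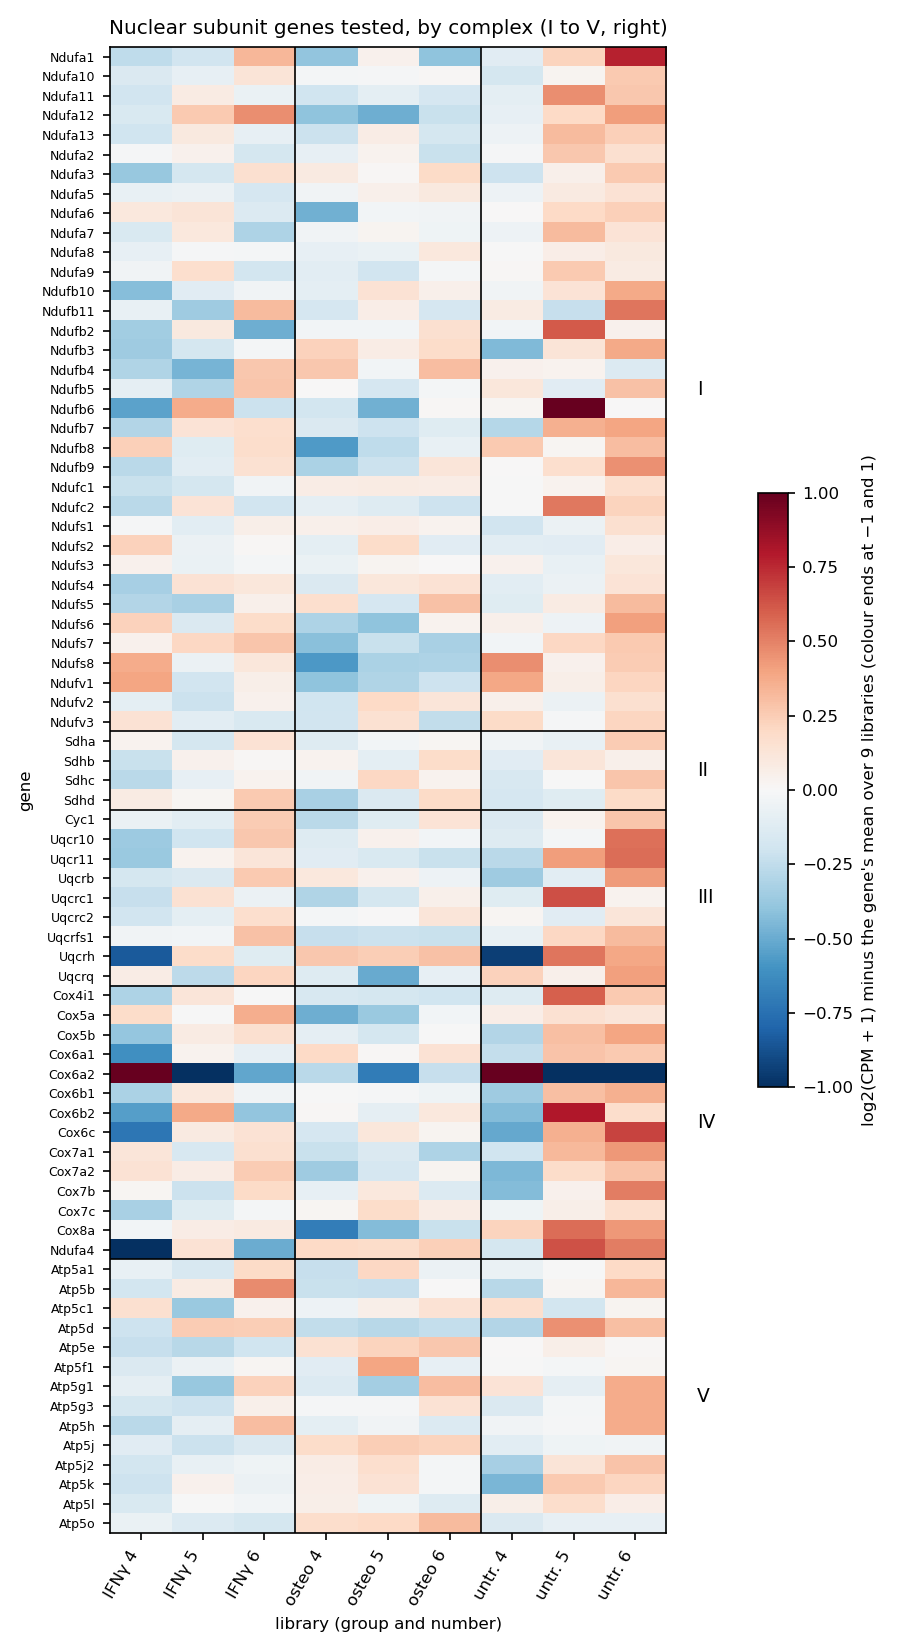
Heat map of the 76 subunit genes tested (rows, by complex I to V) in 9 libraries (columns: IFNγ-treated, osteogenic, untreated; numbers 4, 5, 6). Colour is log2(CPM + 1) minus the gene's mean over the 9 libraries; libraries 4, 5 and 6 lie above the gene's mean for 18, 30 and 45 genes with IFNγ, 20, 34 and 38 in osteogenic and 23, 52 and 72 in untreated cells.

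Levels also went with the library number in both adipogenic groups. The numbers do not pair osteogenic with adipogenic libraries. Summed over the 80 subunit genes, IFNγ-treated libraries 4, 5 and 6 had 7497, 8185 and 8988 CPM, osteogenic ones 7450.3, 7967 and 8161 CPM, and untreated ones 7676, 9332 and 9943 CPM. Library 4 was the lowest in both adipogenic groups, and each treated library lay below the untreated library of its number. Osteogenic library 4 was also the lowest of its group, but its number does not link it to the adipogenic ones. Within IFNγ-treated libraries, number 4 was lowest for 43 of the 83 genes tested (background over 15098 genes 35.4%), within osteogenic libraries for 39 (31.6%), and within untreated libraries for 59 (34.4%). Deviations from the group mean in treated and untreated libraries of the same number correlated across the 83 genes at 0.892, 0.891 and 0.789 for numbers 4, 5 and 6 (Pearson's r across genes, which are not independent). Uqcrh, the hinge subunit of complex III, was picked after its values were seen as an example of the spread, with 43.5, 89.6 and 72.4 CPM in IFNγ-treated, 95.3, 93.4 and 96.6 CPM in osteogenic, and 40.5, 115 and 103 CPM in untreated libraries 4, 5 and 6. The 73 genes of at least 10 CPM had a median coefficient of variation of 13.5% among IFNγ-treated, 6.97% among osteogenic and 14.8% among untreated libraries, against 17.6, 11.4 and 17.4% for all 9709 genes of at least 10 CPM.

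The comparison of treated with untreated adipogenic cells asked what IFNγ changed. No nuclear gene of oxidative phosphorylation passed the test, but most lay slightly lower with IFNγ. The log2 fold change (treated over untreated) was negative for 71 of 83 genes (background 52.7%), and its median was −0.15, against −0.02 over all genes tested. This is a small shift, and within complexes the medians were −0.17 in complex I, −0.06 in II, −0.22 in III, −0.29 in IV and −0.11 in V. Without untreated library 6 the median over all 83 was −0.06, and those of complexes I, II, III and V were −0.09, 0.03, 0.00 and −0.02. Without untreated library 5 that of complex IV was −0.12, and without untreated library 4 it was −0.42, beside −0.22 in V and −0.11 in II. At an adjusted p under 0.05 by edgeR's quasi-likelihood test, 0 of 83 rose (background 2.01%) and 0 fell (background 0.245%). At an unadjusted p under 0.05 there were 5, all lower. Over all 15098 genes tested, 807 were lower and 1352 higher at that unadjusted threshold (background in either direction 14.3%). Calls in either direction covered 2.26% of all genes. DESeq2 called 1 of the 83, Atp5e, lower, beside 318 of 15098 genes lower and 750 higher (background in either direction 7.07%). By limma-voom 0 were called (2.64%). In 73 of the 83, the fold change plus or minus 2 SE stayed within 2-fold in either direction. In bulk RNA, fewer cells of a kind and less RNA per cell cannot be told apart.

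Same-numbered adipogenic libraries deviated together over all genes, at correlations of 0.791, 0.787 and 0.797, so the comparison was also made within pairs. IFNγ-treated cells lay below their untreated pair in all 3 pairs for 48 of 83 genes (background 29.7%) and above it in all 3 for 5 (background 26.9%). The median difference in log2(CPM + 1) was −0.09 in pair 4, −0.19 in pair 5 and −0.17 in pair 6. With the replicate number as a block in the 6 adipogenic libraries, 6 of 82 genes fell and 1 rose, beside 8.02% and 8.61% of the 14705 genes tested there, so the share that fell was near the background. The 6 were Ndufa4 (adjusted p = 0.0176), Ndufb2 (0.0227), Ndufc2 (0.0345), Ndufb6 (0.0401), Ndufb10 (0.0401) and Cox8a (0.0476). When the pairs were blocked in a fit of all 9 libraries, an alternative chosen after seeing the data, 3 fell (Ndufa4, Ndufb2 and Ndufc2; background 4.27%) and 0 rose (background 6.53%).

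**Figure D2:**
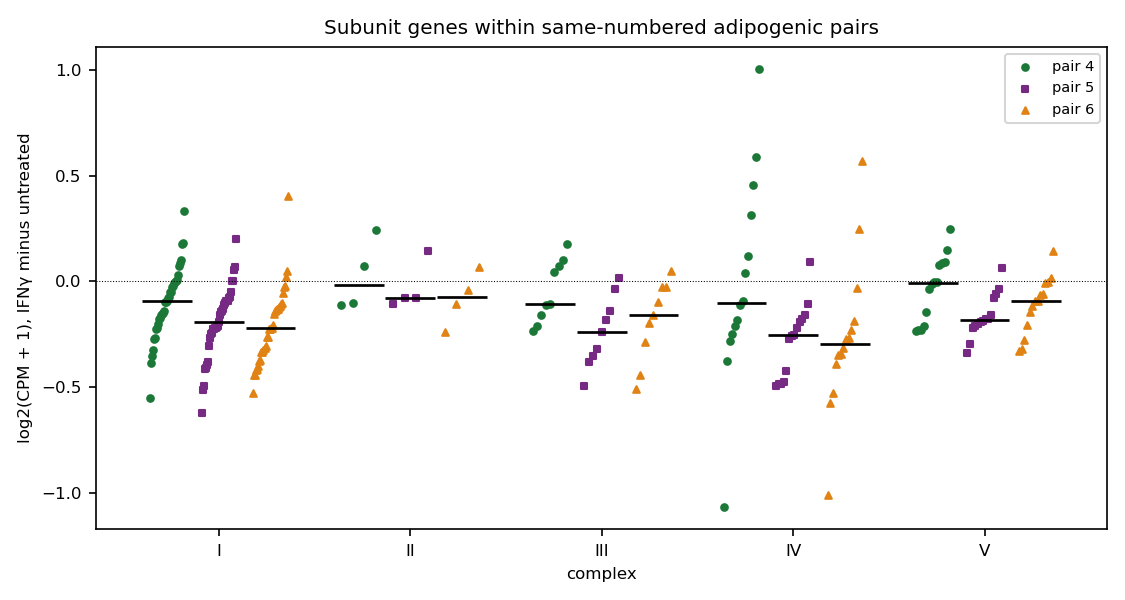
Difference in log2(CPM + 1) between the IFNγ-treated and the untreated library of the same number, for each subunit gene, by complex. Points are genes, bars are medians, and the 3 columns of a complex are pairs 4, 5 and 6; the medians of complexes I and IV are −0.09 and −0.10 in pair 4, −0.19 and −0.25 in pair 5, and −0.22 and −0.29 in pair 6.

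Ndufa4, a subunit first assigned to complex I and now placed in complex IV, had the largest block-called fall. Its CPM were 56.0, 149 and 94.8 in IFNγ-treated libraries 4, 5 and 6, and 118, 209.7 and 192 in untreated ones. The groups overlapped, since treated library 5 lay above untreated library 4, but each treated library was below its own pair. The log2 fold change was −0.80 ± 0.34 (SE; adjusted p = 0.34) without the block and −0.88 ± 0.14 with it. Cox8a, the small liver-type subunit of complex IV, had 179, 192 and 194 CPM with IFNγ and 213, 268 and 246 CPM without. Here the groups did not overlap, and the log2 fold change was −0.37 ± 0.15 (adjusted p = 0.312). The 4 complex I genes that the block called encode accessory subunits and were named after their values were seen. Ndufb10 had 51.1, 63.6 and 66.9 CPM in treated libraries, all below the 67.0, 75.6 and 89.7 CPM of untreated ones, while for Ndufb2, Ndufb6 and Ndufc2 the groups overlapped. The gene that rose with the block was Cox6a2 (log2 fold change 1.12 ± 0.26, adjusted p = 0.0436), whose level in libraries 5 and 6 stayed under 1 CPM in both groups.

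Core subunits showed no call. Ndufs1 and Ndufv1, which carry iron-sulfur clusters and the NADH site of complex I, had log2 fold changes of 0.00 ± 0.12 and −0.12 ± 0.17. The value for Sdha, the flavoprotein of complex II, was −0.05 ± 0.14, and for Sdhb, its iron-sulfur subunit, −0.07 ± 0.13. Cyc1 (cytochrome c1), Uqcrc1 and Uqcrfs1 (the Rieske protein) of complex III had −0.03 ± 0.17, −0.27 ± 0.22 and −0.08 ± 0.14. Cox5a of complex IV had 0.08 ± 0.15. The ATP synthase genes Atp5a1 and Atp5b, the α and β subunits, had −0.05 ± 0.17 and 0.11 ± 0.22. Among the paralogues, Cox4i1, Cox6b1, Cox7a2, Cox7a2l (a supercomplex assembly factor), Atp5g1 and Atp5g3 lay between −0.33 ± 0.20 for Cox4i1 and 0.12 ± 0.20 for Cox7a2. Outside this range were the weakly expressed Cox6b2 (−1.09 ± 1.12), Cox7a1 (−0.59 ± 0.74) and Ndufa4l2 (−1.36 ± 0.54, adjusted p = 0.294), besides Ndufa4, Cox8a and Cox6a2 above. Adjusted p values of the 10 core genes ran from 0.666 for Uqcrc1 to 0.998 for Ndufs1. In all, 8 genes had all treated libraries below all untreated ones (background 7.17%) and 0 the reverse (background 10.2%). The 8 were Ndufa5, Ndufa8, Ndufb10 and Ndufc1 of complex I, Cox8a of complex IV, and Atp5e, Atp5j and Atp5l of complex V.

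Osteogenic progenitors were compared with untreated adipogenic ones to see how the 2 kinds of progenitor differ. One gene passed the test. Cox8a (ENSMUSG00000035885) was lower in osteogenic cells, with 112, 135 and 156 CPM, against 213, 268 and 246 CPM in untreated adipogenic cells, so the groups were well separated. Its mean was 134 ± 21.8 CPM in osteogenic and 243 ± 28.0 CPM in untreated libraries (SD, n = 3 each), a log2 fold change of −0.85 ± 0.15 (adjusted p = 0.0209). The call was lost in 4 of 6 fits that left out a library: adjusted p was 0.0535 and 0.0695 without untreated library 5 or 6, and 0.0791 and 0.0790 without osteogenic library 4 or 5, with the log2 fold change between −0.97 and −0.74 throughout. Called lower was thus 1 of 83 (background 3.19%) and called higher 0 of 83 (background 1.98%, 5.17% in either direction), with 15 at an unadjusted p under 0.05 (background 23.3% in either direction).

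Beyond Cox8a, genes of complexes I, III and IV lay mostly lower in osteogenic cells, whereas those of complexes II and V were evenly split. The log2 fold change (osteogenic over untreated) was negative for 27 of 35 genes of complex I, 2 of 4 of II, 6 of 9 of III, 12 of 14 of IV and 7 of 14 of V, in all 59 of 83 (background 51.4%). Medians were −0.22, −0.02, −0.20, −0.26 and −0.01, and −0.17 over all 83, against −0.02 over all genes tested. Without untreated library 6 the median was −0.05 over all genes of the set, −0.03 in complex III, −0.10 in IV, 0.05 in II and 0.05 in V, and without untreated library 4 it was −0.33 in III, −0.41 in IV, −0.10 in II and −0.14 in V. The difference between complexes was not tested here. Osteogenic libraries lay wholly below untreated ones for 15 genes (background 15.9%) and wholly above for 4 (background 15%). The share wholly below was thus near the background. Among the 15 were Ndufs7, Ndufs8 and Ndufv1, which encode core subunits of complex I, Uqcrfs1 of complex III, and Cox4i1 and Cox5a of complex IV. The 4 were Atp5e, Atp5j and Atp5o of the ATP synthase and Atp5s, which is named as a coupling factor.

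**Figure D3:**
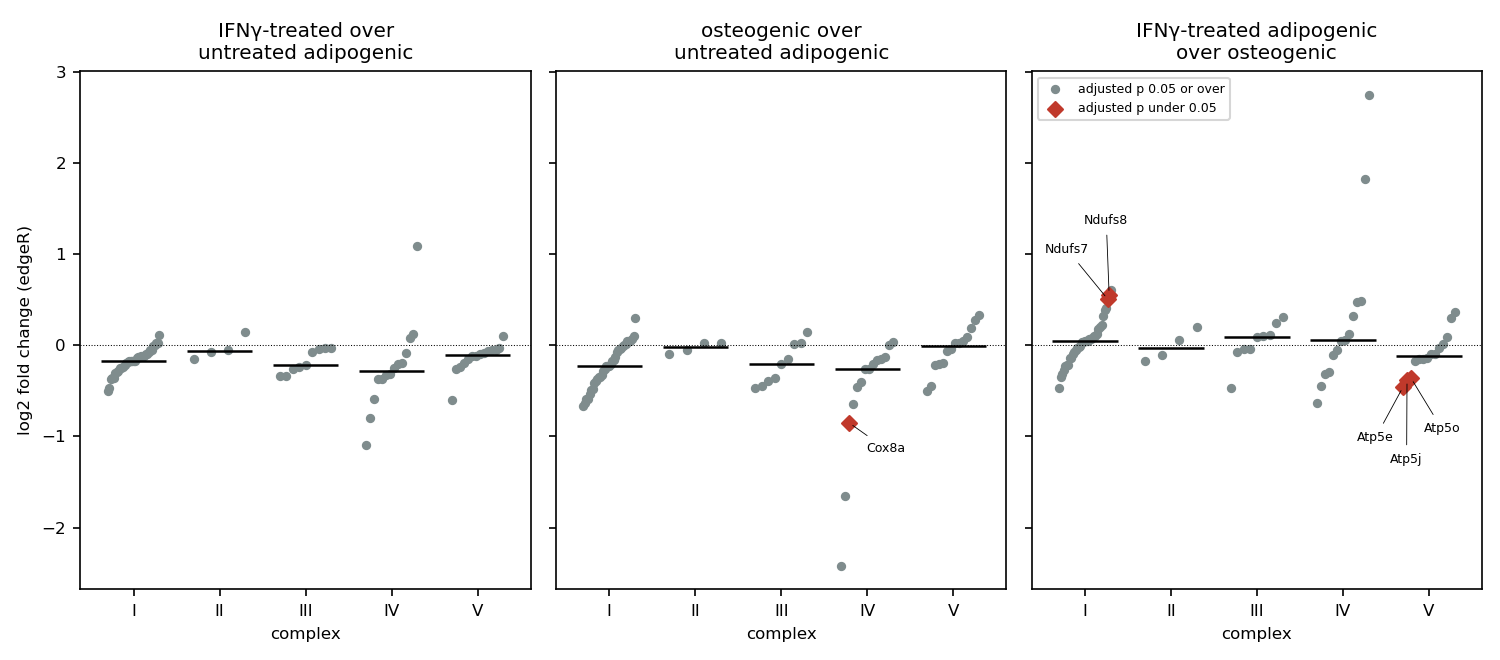
Log2 fold change of each subunit gene tested, by complex, in 3 comparisons (IFNγ-treated over untreated adipogenic, osteogenic over untreated adipogenic, IFNγ-treated adipogenic over osteogenic). Points are genes, bars are medians, and diamonds with names are genes with an adjusted p under 0.05; there are 0 diamonds on the left, Cox8a alone in the middle, and 2 of complex I above and 3 of complex V below 0 on the right.

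Several complex I and complex V genes fell short of the threshold in opposite directions. Ndufs8 had a log2 fold change of −0.67 ± 0.16 (adjusted p = 0.0533), Ndufs7 of −0.48 ± 0.13 (0.0669) and Ndufv1 of −0.53 ± 0.17 (0.109). Atp5o had 0.34 ± 0.10 (0.0870) and Atp5j 0.28 ± 0.09 (0.121). The core genes of complex II and the catalytic subunits of complex V were closer to 0. They had −0.10 ± 0.14 for Sdha, 0.03 ± 0.13 for Sdhb, −0.06 ± 0.17 for Atp5a1 and −0.19 ± 0.22 for Atp5b. For Uqcrfs1 of complex III and Cox5a of complex IV, osteogenic libraries lay wholly below untreated ones. Such separation was near the background over the set (15 of 83 genes, background 15.9%), so it does not set these genes apart. DESeq2 called 6 genes lower (Cox8a, Ndufs7, Ndufs8, Ndufv1, Ndufb8 and Sdhaf2) and 2 higher (Atp5j and Atp5o), where edgeR called 1 and 0, but DESeq2 also called more of all genes (background 8.49% lower and 6.25% higher). With the replicate number as a block, which does not pair osteogenic with adipogenic libraries, 3 were lower (Cox8a, Ndufs7 and Uqcrq; background 4.75%) and 0 higher (background 3.49%). The muscle form Cox7a1 gave −2.42 ± 0.84 (adjusted p = 0.134) at levels of at most 0.723 CPM in any library.

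IFNγ-treated adipogenic cells were also set against osteogenic cells. These are the same treated and osteogenic libraries as above, so the calls are not independent of the comparisons before. Of 83 genes, 3 were higher in treated adipogenic cells (background 9.20%) and 4 lower (background 7.52%, 16.7% in either direction), with 12 at an unadjusted p under 0.05 (background 32%). With the block the counts were 5 higher (background 11.3%) and 4 lower (background 10.3%), Ndufs8 not among them. DESeq2 called 6 higher (background 13.8%) and 4 lower (background 11.6%). The log2 fold change was negative for 40 of 83 (background 47.8%), and its median was 0.04, against 0.03 over all genes tested. With upper-quartile scaling the median was −0.03, against −0.04 over all genes. Treated libraries lay wholly above osteogenic ones for 10 genes (background 19.7%) and wholly below for 12 (background 18.8%). The complex I median was 0.04, that of complex II −0.02, of III 0.10, of IV 0.05 and of V −0.12.

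Both complex I genes that passed were higher in treated adipogenic cells, and both encode subunits that hold iron-sulfur clusters near the ubiquinone site. Ndufs7 (ENSMUSG00000020153) had 67.3, 75.9 and 79.6 CPM in IFNγ-treated and 48.7, 55.9 and 52.1 CPM in osteogenic libraries. Its log2 fold change was 0.51 ± 0.13 (adjusted p = 0.0283). Ndufs8 (ENSMUSG00000059734) had 98.6, 73.0 and 82.4 CPM in treated and 50.8, 60.8 and 61.2 CPM in osteogenic libraries, a log2 fold change of 0.56 ± 0.16 (0.0496). That call was lost with upper-quartile scaling (0.0743), no filter (0.0548), limma-voom (0.0543), the 2 groups alone (0.0587), the block (0.0551) and the length offset without and with the block (0.0577 and 0.0603). Neither pair of groups overlapped. Untreated adipogenic cells had 64.1, 75.7 and 78.5 CPM of Ndufs7 and 105, 78.4 and 90.8 CPM of Ndufs8, overlapping the treated range. Sdhaf2, an assembly factor that helps to attach flavin to the complex II flavoprotein, had 58.9, 53.6 and 66.2 CPM in treated and 33.1, 35.3 and 42.0 CPM in osteogenic libraries, a log2 fold change of 0.69 ± 0.16 (0.0197).

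The 3 complex V genes that passed were lower in treated adipogenic than in osteogenic cells. Atp5e (ENSMUSG00000016252), the ε subunit of the central stalk, had 59.5, 57.6 and 61.04 CPM in IFNγ-treated and 78.2, 81.9 and 84.6 CPM in osteogenic libraries. The untreated libraries lay between, at 70.2, 73.1 and 70.6 CPM. The log2 fold change was −0.46 ± 0.09 (adjusted p = 0.0139). Atp5j (ENSMUSG00000022890), coupling factor 6 of the peripheral stalk, had 95.3, 88.4 and 92.9 CPM in treated and 117, 122 and 120.2 CPM in osteogenic libraries, a log2 fold change of −0.38 ± 0.09 (0.0272). Atp5o (ENSMUSG00000022956), the oligomycin sensitivity-conferring subunit, had 106, 100.5 and 98.0 CPM in treated and 125, 127 and 138 CPM in osteogenic libraries, a log2 fold change of −0.36 ± 0.10 (0.0384). Of the 75-base stretches of Atp5o transcripts, 19.4% also occur in other genes. In all 3, treated and osteogenic libraries did not overlap. The catalytic subunits did not pass the test, with 0.01 ± 0.17 for Atp5a1 and 0.30 ± 0.22 for Atp5b. Nor did other stalk genes, named after their values were seen: Atp5d, the central-stalk δ subunit, had 0.37 ± 0.21 with treated libraries wholly above osteogenic ones, Atp5c1 −0.10 ± 0.16, Atp5f1 −0.15 ± 0.15 and Atp5h 0.09 ± 0.18.

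Cox8a lay wholly higher in treated adipogenic than in osteogenic libraries but missed the threshold (log2 fold change 0.49 ± 0.15, adjusted p = 0.0612).

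Leaving out 1 library ended most of these calls. Atp5e lost its call only without osteogenic library 6 (adjusted p = 0.0541). Atp5j, Atp5o and Ndufa4l2 lost theirs in all 6 such fits (highest adjusted p = 0.0825, 0.124 and 0.125), Ndufs7 and Ndufs8 in 5 of 6 (highest 0.108 and 0.145), and Sdhaf2 in 3 of 6 (highest 0.0723). No direction changed in these fits. Atp5j and Atp5o also lost their calls with no filter (0.0648 and 0.0910) and with the 2 groups alone (0.0521 and 0.0675), and Ndufa4l2 with no filter (0.0565) and limma-voom (0.0511). Ndufa4l2 is a paralogue of Ndufa4 known for its induction in low oxygen. It had 0.266, 0.169 and 0.142 CPM in treated, 0.574, 0.790 and 0.960 CPM in osteogenic and 0.760, 0.541 and 0.1995 CPM in untreated libraries, and its log2 fold change of −1.99 ± 0.54 (adjusted p = 0.0390) rests on 5 to 9 counts per treated library.

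**Figure D4:**
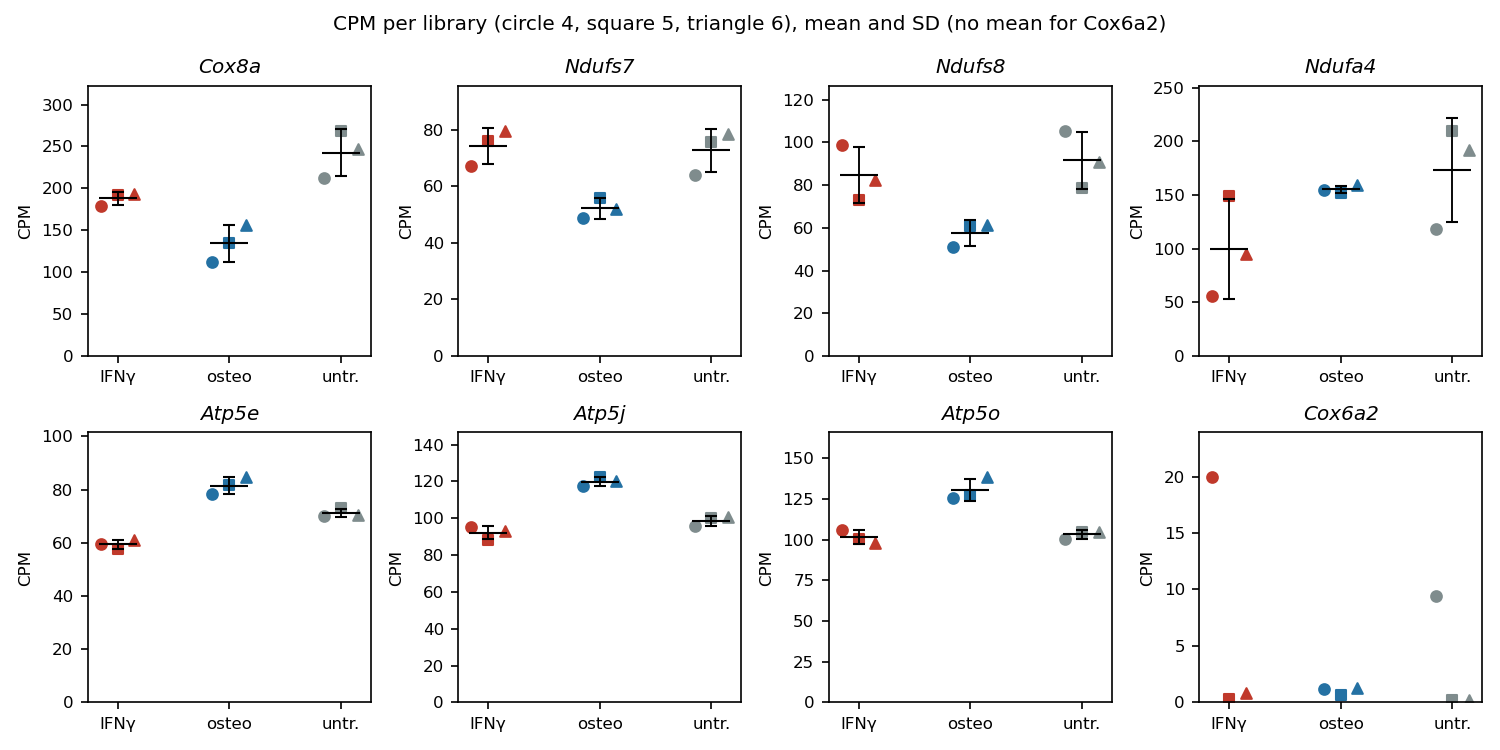
CPM per library of 8 genes in IFNγ-treated, osteogenic and untreated libraries (circle 4, square 5, triangle 6); black lines are the mean and SD of 3 libraries, left out for Cox6a2. Osteogenic libraries lie lowest for Cox8a, Ndufs7 and Ndufs8 and highest for Atp5e, Atp5j and Atp5o, and Cox6a2 is high in the 2 adipogenic libraries numbered 4.

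Summed levels were compared next. Complex I genes summed to 2393 ± 54.3 CPM in IFNγ-treated, 2262 ± 112 in osteogenic and 2661 ± 215 CPM in untreated libraries (SD, n = 3 each). For complex IV the sums were 1513 ± 193, 1454 ± 50.3 and 1836 ± 377 CPM, and for complex III 877 ± 103, 844 ± 51.3 and 999.9 ± 155 CPM. Complex V had 2938 ± 414, 2795 ± 148 and 2968 ± 426 CPM, and complex II 502 ± 40.5, 504 ± 31.5 and 519 ± 61.9 CPM. The ratio of the complex V sum to the complex I sum was 1.11, 1.18 and 1.39 in IFNγ-treated, 1.23, 1.22 and 1.25 in osteogenic and 1.05, 1.10 and 1.19 in untreated libraries 4, 5 and 6. Each treated library thus had a higher ratio than its untreated pair, and the osteogenic libraries lay above all untreated ones. Abundant genes weigh most in such sums, and the ratio was not tested.

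**Figure D5:**
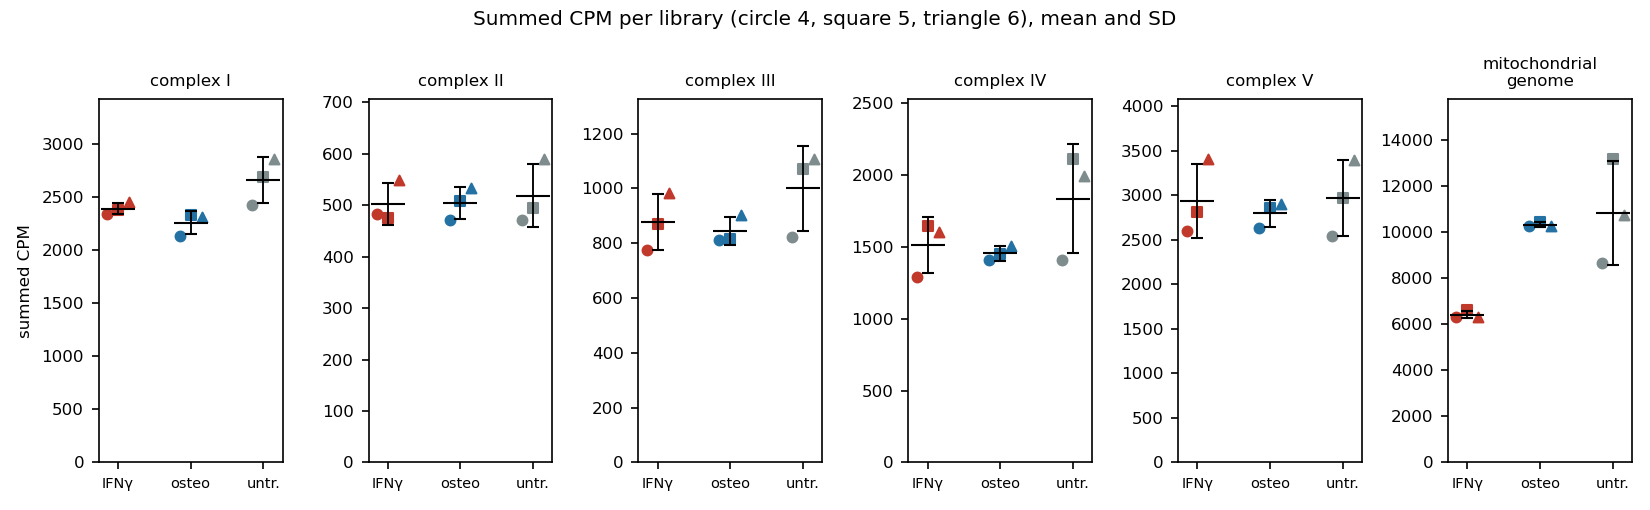
Summed CPM of the genes of complex I to V and of the subunit genes of the mitochondrial genome, per library (circle 4, square 5, triangle 6), with mean and SD, for IFNγ-treated, osteogenic and untreated groups. Nuclear sums of treated and untreated libraries overlap in each of complexes I to V, while the mitochondrial genome sums of 6335 to 6621 CPM in treated libraries lie below the 8660 to 13174 CPM of untreated ones.

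In treated adipogenic against osteogenic cells, Ndufs7 and Ndufs8 were both called higher, and Atp5e and Atp5o both lower. Cox8a was the gene called in osteogenic against untreated cells. Whether these genes vary together was not tested. Atp5j, also called lower, had 2 promoter entries and was left out. The promoters of the 5 genes named before it are shown. Each runs from 250 bases before to 50 bases after the RefSeq transcript start on build GRCm38.p6, 5′ to 3′ on the strand of the gene, with motif matches in capitals. The positions are chr19:7217567-7217866 (minus strand) for Cox8a, chr10:80249199-80249498 (plus) for Ndufs7, chr19:3912725-3913024 (minus) for Ndufs8, chr2:174464052-174464351 (minus) for Atp5e and chr16:91931581-91931880 (minus) for Atp5o.
Cox8a: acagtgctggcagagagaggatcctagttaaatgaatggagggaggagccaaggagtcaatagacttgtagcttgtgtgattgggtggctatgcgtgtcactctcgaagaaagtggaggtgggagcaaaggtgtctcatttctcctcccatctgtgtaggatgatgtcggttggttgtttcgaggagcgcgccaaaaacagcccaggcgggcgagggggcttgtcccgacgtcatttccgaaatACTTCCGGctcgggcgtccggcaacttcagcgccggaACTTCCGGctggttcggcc
Ndufs7: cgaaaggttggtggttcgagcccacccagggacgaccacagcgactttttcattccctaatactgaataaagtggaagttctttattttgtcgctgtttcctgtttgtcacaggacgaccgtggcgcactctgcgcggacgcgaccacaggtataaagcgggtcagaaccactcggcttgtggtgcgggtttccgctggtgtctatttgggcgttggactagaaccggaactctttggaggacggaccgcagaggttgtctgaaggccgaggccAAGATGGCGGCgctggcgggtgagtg
Ndufs8: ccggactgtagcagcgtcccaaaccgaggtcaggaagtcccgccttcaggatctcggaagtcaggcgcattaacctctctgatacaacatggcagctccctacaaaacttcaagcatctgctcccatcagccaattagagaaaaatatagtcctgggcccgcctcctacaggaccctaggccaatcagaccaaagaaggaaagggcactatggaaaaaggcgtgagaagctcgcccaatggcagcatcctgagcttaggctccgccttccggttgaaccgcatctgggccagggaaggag
Atp5e: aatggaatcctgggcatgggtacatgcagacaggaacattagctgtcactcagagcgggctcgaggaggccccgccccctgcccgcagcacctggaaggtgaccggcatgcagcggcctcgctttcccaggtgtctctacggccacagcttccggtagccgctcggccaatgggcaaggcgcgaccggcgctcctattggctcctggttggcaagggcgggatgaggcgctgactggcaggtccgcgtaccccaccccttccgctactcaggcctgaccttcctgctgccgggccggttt
Atp5o: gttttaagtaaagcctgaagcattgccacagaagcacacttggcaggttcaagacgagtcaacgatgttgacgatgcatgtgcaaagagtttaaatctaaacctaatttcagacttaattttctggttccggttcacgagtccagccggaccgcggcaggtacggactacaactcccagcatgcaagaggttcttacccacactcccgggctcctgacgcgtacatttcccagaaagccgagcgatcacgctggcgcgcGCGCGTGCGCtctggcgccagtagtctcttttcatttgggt
Consensus motifs of NRF1, of ETS factors such as GABP, and of YY1 were searched on both strands, and no 2 matches overlapped in these windows. Cox8a held 2 matches of the ETS motif, both on the opposite strand, Ndufs7 held 1 YY1 match and Atp5o 1 NRF1 match. In Ndufs8 and Atp5e none of the 3 motifs occurred in this window. The NRF1 motif was in 26.1% of 69 promoter entries of 64 subunit genes and in 4.60% of all 32851 promoters. For the ETS motif the shares were 7.25% and 3.89%, and for the YY1 motif 5.80% and 0.633%. A match is a description of sequence, and no binding was measured here.

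Other genes of respiration were read from lists. Over all genes tested, edgeR called 2.01% higher and 0.245% lower with IFNγ against untreated cells, 1.98% higher and 3.19% lower in osteogenic against untreated cells, and 9.20% higher and 7.52% lower in treated adipogenic against osteogenic cells. Of the 13 subunit genes of the mitochondrial genome, 7 were tested, and with IFNγ 4 were lower than in untreated cells (mt-Nd2, mt-Nd4, mt-Nd5 and mt-Cytb), with a list median of −0.97, and 6 with the block. mt-Nd4, a core complex I subunit, had 303, 301 and 293 CPM in treated libraries and 657, 912 and 718 CPM in untreated ones (log2 fold change −1.35 ± 0.15, adjusted p = 0.00268). No such gene was called in osteogenic against untreated cells, where 0 of 7 reached an unadjusted p under 0.05. mt-Co2, mt-Co3 and mt-Atp6 are listed at 0 in every library, although cells that respire use them, so the list is not complete in these counts. The nuclear partners of mt-Nd4 in complex I had a median of −0.17 in the same comparison, and the difference between nuclear and mitochondrial genes was not tested.

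Assembly factors, of which 40 were tested, had 0 calls with IFNγ against untreated cells and 1 lower in osteogenic cells, Sco2, a copper chaperone for complex IV (12.4 CPM on average in osteogenic and 21.0 in untreated libraries, adjusted p = 0.0240). Treated adipogenic against osteogenic cells had 3 of 40 higher (Sco2, Lrpprc and Higd1a; background 9.20%) and 1 lower (Tmem70; background 7.52%). Of 27 regulators of respiratory genes, 0 were called with IFNγ and 2 were lower in osteogenic cells. Ppargc1a, a coactivator of mitochondrial genes, had 0.302, 0.338 and 0.536 CPM in osteogenic and 2.28, 1.99 and 2.37 CPM in untreated libraries (log2 fold change −2.48 ± 0.42, adjusted p = 0.0177), so the groups did not overlap but the level was low in both. Sirt1, a deacetylase that acts on that coactivator, was lower as well (−0.74 ± 0.13, 0.0197). Tfam, the packaging and transcription factor of mitochondrial DNA, had 65.7, 65.0 and 71.0 CPM in IFNγ-treated and 42.8, 38.9 and 39.6 CPM in osteogenic libraries (0.73 ± 0.10, adjusted p = 0.00314), with 51.5, 53.7 and 57.7 CPM in untreated ones.

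Enzymes of the citric acid cycle numbered 19, of which 0 were called with IFNγ and 1 was lower in osteogenic than in untreated cells, Pcx, which replenishes oxaloacetate (−1.71 ± 0.38, adjusted p = 0.0422). Of 20 genes for cytochrome c, coenzyme Q synthesis and carriers, 0 were called with IFNγ and 1, Coq7 of coenzyme Q synthesis, was lower in osteogenic cells (−0.73 ± 0.15, adjusted p = 0.0370). Mitochondrial ribosomal proteins, which serve translation of the mitochondrial genome, had 0 of 76 calls with IFNγ and a median of 0.01. In osteogenic against untreated cells, 2 of 76 were lower (background 3.19%) and the median was −0.21, against −0.02 over all genes. Osteogenic libraries lay wholly below untreated ones for 25 of 76 (background 15.9%) and wholly above for 2 (background 15%). In treated adipogenic against osteogenic cells, 9 of 76 were higher, near the background of 9.20%, and 0 lower (background 7.52%), with a median of 0.22, against 0.03 over all genes. Treated libraries lay wholly above osteogenic ones for 28 of 76 (background 19.7%) and wholly below for 7 (background 18.8%). With the block, 16 were higher (background 11.3%) and 1 lower (background 10.3%), and the list was not tested as a whole. In that comparison 6 of 7 mitochondrial genome genes were lower, 4 of 27 regulators were higher (Ppargc1a, Pprc1, Tfam and Sirt1) and 1 lower (Hif1a), 1 of 19 citric acid cycle genes was lower (Dlst), and of 20 carriers Coq7 was higher and Ucp2 lower, beside 16.7% of all genes called in either direction.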

How the data were processed

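The values analysed are read counts per gene that the authors deposited as whole numbers, not normalized, beside each gene's exon number and summed exon length. CASAVA 1.8.0, bedtools 2.11 and mm9 are listed, per the submitters' processing notes. Which aligner and counter were used, and with what strand setting, the sources used here do not say, so reads of near-identical copies, overlapping or antisense genes cannot be assigned with certainty. Per the labels, the libraries were poly(A)-selected and read as 75-base single reads.

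Tests ran in edgeR 4.0.16 under R 4.3.3: filterByExpr by group (15098 genes of 24186), TMM scaling, robust quasi-likelihood fits of all 9 libraries, two-sided tests, Benjamini-Hochberg adjustment over all genes tested, threshold 0.05. CPM and RPKM were computed from the counts, the TMM-scaled totals and the exonic length. Each SE was derived by dividing the fold change by the root of its F statistic. Alternatives were other scalings, no filter beyond 1 count, DESeq2 1.42.0, limma-voom (limma 3.58.1), the 2 groups compared only, a replicate block, an exonic length offset (with and without the block), and leaving out each library. A block of the adipogenic pairs in all 9 libraries, and a fit with no adipogenic library numbered 4, were chosen after seeing the data. The scripts were tested on simulated data. The simulation had less spread than the common estimate of these data, no pairs, and only larger changes than most in this set. It does not cover the small shifts reported here. With 3 libraries a group, the smallest two-sided exact p is 0.1.

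Whether the numbers 4 to 6 pair libraries was checked from deviations from group means. They correlated at 0.791, 0.787 and 0.797 for same-numbered treated and untreated adipogenic libraries, and at −0.111 to 0.0637 between osteogenic and adipogenic ones, so the pairing comes from the data and holds for the adipogenic libraries only. No libraries of a group agreed within sampling noise.

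Named genes were, per complex and comparison, up to 4 that passed, by smallest adjusted p and at least 1 CPM in the higher group, then sets of paralogues (Cox4, Cox6a, Cox6b, Cox7a, Cox8, Ndufa4 and Atp5g genes) and 10 core subunits. Any other named gene was chosen after its values were seen. The members and lists were chosen with earlier results of these data known. Promoters come from RefSeq (GRCm38.p6). Symbols matched entries for 67 of the 87 genes, and no GRCm38 position was set beside the mm9 counts. Cox8b and the list genes Timmdc1, Uqcc3, Cox14, Coa4 to Coa7, Pet100, mt-Nd4l and mt-Atp8 were not analysed here.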

Additional observations from a re-analysis of the deposited data

How the results depend on the processing

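Of 1358 recomputed values of named genes, 1218 kept direction and side of the threshold, 49 lost the call, 23 gained one and 68 changed sign; of 265 complex medians 16 moved, and of 141 counts and medians over all genes of the set 30 did. Where not shown otherwise by fewer samples or genes, the cause was not tested.

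For IFNγ-treated against untreated cells, DESeq2 called 1 gene lower, the replicate block 6 lower and 1 higher, the length offset with the replicate block 7 lower and 1 higher, and the block of pairs in all 9 libraries 3 lower. Ndufs1 changed sign to −0.01 with RLE, DESeq2, the 2 groups alone and the replicate block (−0.0110, −0.0111, −0.0135 and −0.00782), −0.0463 with upper-quartile scaling and −0.0683 with no adipogenic library numbered 4. Ndufs7 went to −0.0174 with upper-quartile scaling, and Cox7a2 to −0.0540 with no adipogenic library numbered 4, where 0 genes were called and the median was −0.19.

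For osteogenic against untreated cells, 2 were lower with RLE, 6 lower and 2 higher with DESeq2, 3 lower with the replicate block and 2 lower with the length offset and block. Cox6a1 went to −0.00700 with RLE, −0.00433 with no filter, −0.00699 with DESeq2 and −0.00427 with the 2 groups alone. Cox6a2 went to 0.33 with limma-voom, 0.70 with the replicate block and 0.72 with length offset and block, Cox6b2 to 0.000358, 0.11 and 0.15. Atp5g3 went to 0.00303 with the length offset and 0.0143 with the block added. For IFNγ-treated adipogenic against osteogenic cells, no filter gave 1 lower, DESeq2 6 higher, the 2 groups alone 2 lower and the replicate block 5 higher. Of the 7 genes called there, Ndufs8 lost its call under 7 of these settings, Atp5j, Atp5o and Ndufa4l2 under 2 each. Upper-quartile scaling gave −0.0567 for Atp5a1 and −0.0136 for Sdha. Since the numbers do not pair osteogenic with adipogenic libraries, a call changed by the block there says nothing of the size of an effect.

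Without 1 library at a time, log2 fold changes in IFNγ-treated against untreated cells ran from −0.16 to 0.0315 for Atp5a1, from −0.0801 to 0.28 for Atp5b, from −0.0431 to 0.00617 for Atp5o, from −0.0152 to 0.15 for Cox5a, from −2.50 to 4.84 for Cox6a2, from −0.0754 to 0.26 for Cox7a2, from −0.15 to 0.0884 for Cyc1, from −0.0772 to 0.11 for Ndufs1, from −0.051 to 0.11 for Ndufs7, from −0.12 to 0.0637 for Sdha, from −0.14 to 0.0199 for Sdhb, from −0.41 to 0.00108 for Uqcrc1, from −0.19 to 0.0144 for Uqcrfs1. Without 1 library at a time, log2 fold changes in osteogenic against untreated cells ran from −0.19 to 0.0314 for Atp5a1, from −0.15 to 0.12 for Atp5g3, from −0.15 to 0.0936 for Cox6a1, from −2.21 to 2.1 for Cox6a2, from −1.16 to 0.34 for Cox6b2, from −0.37 to 0.00195 for Ndufa4, from −0.00857 to 0.17 for Ndufs1, from −0.16 to 0.00879 for Sdha, from −0.046 to 0.0981 for Sdhb. Without 1 library at a time, log2 fold changes in IFNγ-treated adipogenic against osteogenic cells ran from −0.0915 to 0.14 for Atp5a1, from −0.21 to 0.19 for Atp5g1, from −0.83 to 3.29 for Cox6a2, from −0.16 to 0.0748 for Cox6b1, from −2.55 to 0.12 for Cox6b2, from −0.00128 to 0.23 for Cyc1, from −0.0167 to 0.12 for Sdha, from −0.023 to 0.20 for Uqcrc1. The same fits gave a median over all genes of the set of −0.22 to −0.06 in IFNγ-treated against untreated cells, 0 to 1 gene lower in osteogenic against untreated cells, with a median of −0.24 to −0.0547, and 0 to 3 higher and 0 to 1 lower in IFNγ-treated adipogenic against osteogenic cells, with a median of −0.0446 to 0.0603.

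Levels of Cox6b2, Cox7a1 and Ndufa4l2 rest on few counts, and that of Cox6a2 on the 2 adipogenic libraries numbered 4.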
